A study of Mus musculus with 8 samples.

Results

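The 4 mature microRNAs (miRNAs) of the miR-26 and miR-101 families, mmu-miR-26a, mmu-miR-26b, mmu-miR-101a and mmu-miR-101b, were followed in obstructed and contralateral mouse kidneys. They were taken by name from the array design and are 4 of the 611 mouse miRNAs on the array and 4 of the 222 that could be tested. The set was chosen by name once the differences in array signal between obstructed and contralateral kidneys were known from these same arrays, so its differences in that contrast are given as a description, without a test. The obstructed group held 4 kidneys from ICR mice, an outbred strain, taken 7 days after ligation of one ureter. The contralateral group held 4 kidneys of ICR mice that carried the same ligation on the other side for the same 7 days, so these are not kidneys of unoperated animals. Whether an obstructed and a contralateral kidney of equal number belonged to one mouse is not stated in the labels. Total RNA of whole kidney was labelled with Cy3 and hybridised to 1-colour Agilent mouse miRNA arrays, one sample per array.

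miRNAs are short RNAs that guide Argonaute proteins to mRNAs, chiefly through pairing of the seed, bases 2 to 8 from the 5′ end, and thereby lower the stability and translation of the target. The miR-26 and miR-101 families are known to bind the mRNA of Ezh2, the methyltransferase subunit of Polycomb repressive complex 2, which places the repressive methyl marks on lysine 27 of histone H3. Both families are widely expressed in adult tissues, and their loss in several tumours has been linked to higher EZH2. Ezh2 mRNA and protein are not measured by these arrays, so nothing below concerns the level of the target.

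The mature sequences are shown because they define the 2 seed groups and show how little separates the members within each. They are from RefSeq for GRCm38.p6, where all 4 members were matched, and capitals mark bases 2 to 8.
miR-26a: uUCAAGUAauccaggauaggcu
miR-26b: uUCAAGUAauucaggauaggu
miR-101a: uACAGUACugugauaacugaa
miR-101b: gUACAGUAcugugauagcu
Both miR-26 members carry the seed UCAAGUA. Aligned from the 5′ end, miR-26b matched miR-26a at 19 of 21 positions and differed by C11U and C21U, with miR-26a's base first and positions counted from its 5′ end. The annotated miR-101b starts 1 base earlier than miR-101a, so its bases 2 to 8 are shifted by 1 base and read UACAGUA in place of ACAGUAC. Each of these 7-base seeds is nevertheless contained in the sequence of the other. With that offset the pair matched at 17 of 18 aligned positions, and the single substitution is A16G, with miR-101a's base first. The probe sequences were not used here, and cross-hybridisation within either pair was not tested.

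The members come from 5 loci on 5 chromosomes (GRCm38.p6). miR-26a is made from both Mir26a-1 (chr9:119031811-119031832, plus strand, within Ctdspl) and Mir26a-2 (chr10:126995543-126995564, plus strand, within Ctdsp2), which give the same mature sequence and cannot be told apart on the array. miR-26b lies within Ctdsp1 (chr1:74394324-74394344, plus strand). All 3 miR-26 host genes encode small phosphatases that act on the C-terminal domain of RNA polymerase II. miR-101a (chr4:101346957-101346977, minus strand) lies within the long noncoding RNA gene E130102H24Rik, and miR-101b (chr19:29135338-29135356, plus strand) lies within Rcl1, an rRNA-processing gene. For 1 precursor of each family the opposite arm also had probes on the array, and these hairpins are shown with the member in capitals.
Mir26b hairpin: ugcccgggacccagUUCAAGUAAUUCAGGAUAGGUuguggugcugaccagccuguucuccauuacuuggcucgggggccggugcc
Mir101a hairpin: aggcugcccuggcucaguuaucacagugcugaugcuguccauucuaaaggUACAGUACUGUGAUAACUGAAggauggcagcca
The mature miR-26b occupies the 5′ arm of its hairpin and miR-101a the 3′ arm. The opposite strands, named miR-26b* and miR-101a* on the array, were not well above background on any of the 8 arrays, so no difference is given for them.

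All 8 arrays were on 1 slide and read in 1 scan, with kidneys 1 and 2 of both groups in slide row 1 and kidneys 3 and 4 in row 2. Before scaling, the 75th percentile of probe signal was 689, 514, 1403 and 1595 for obstructed kidneys 1 to 4, against 513, 417, 552 and 582 for contralateral kidneys 1 to 4. Signals below are therefore in multiples of each array's own 75th percentile over the 371 probes above background on every array, and are called scaled signal. Scaled signal thus compares a miRNA with the brighter miRNAs hybridised beside it, and does not count molecules per cell. Obstructed kidney 2 stood apart over all 222 miRNAs: its mean correlation was 0.887 with the other obstructed arrays and 0.964 with the contralateral arrays, so results are also given without it. That kidney was singled out by its likeness to the contralateral arrays, so leaving it out favours a wider contrast by selection. Without it 113 miRNAs were called, against 33 over 8 arrays and 0 to 20 when any other single kidney was left out. Calls and adjusted p-values without it are therefore descriptions only. In whole-kidney RNA, fewer cells of a type and less miRNA per cell cannot be told apart. With 4 arrays per group and no statement that they are separate mice, errors concern these samples only. SDs and the SEs of ratios measure the spread between arrays. The SE of a log2 difference is from limma, which draws each miRNA's variance toward that of all 222 tested. It therefore does not measure that miRNA's spread alone: for miR-26a it was 0.11, against a pooled within-group SD of 0.061.

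All 4 members were well above background on all 8 arrays, and each was lower in every obstructed kidney than in every contralateral kidney. Of the 222 miRNAs tested, 21.2% were placed in the same way. miR-101a showed the widest difference of the 4, miR-26b came next, and miR-101b and miR-26a differed least and by similar amounts. These directions hold for scaled signal and turn for 3 of the 4 members without scaling, as described below.

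In the miR-26 family, mmu-miR-26a had a scaled signal of 9.16, 8.47, 9.18 and 9.06 in obstructed kidneys 1 to 4, against 11.5, 11.0, 12.3 and 11.8 in contralateral kidneys 1 to 4. The obstructed kidneys lay close together, with kidney 2 slightly below the others, and a gap of 0.26 on the log2 scale separated the groups. Scaled signal averaged 8.97 ± 0.334 (SD, n = 4) in obstructed kidneys and 11.6 ± 0.535 (SD, n = 4) in contralateral kidneys, a log2 difference of -0.38 ± 0.11 (SE), or 1.30-fold lower. For mmu-miR-26b the scaled signal was 4.62, 4.97, 4.51 and 3.83 in obstructed kidneys, against 7.32, 7.07, 7.59 and 7.42 in contralateral kidneys. Obstructed kidney 4 was the lowest, and the contralateral kidneys were tightly grouped. The means were 4.48 ± 0.481 (SD, n = 4) in obstructed kidneys and 7.35 ± 0.216 (SD, n = 4) in contralateral kidneys, with a log2 difference of -0.72 ± 0.13 (SE), or 1.65-fold lower.

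In the miR-101 family, mmu-miR-101a had a scaled signal of 0.607, 0.854, 0.617 and 0.445 in obstructed kidneys 1 to 4, against 1.27, 1.44, 1.31 and 1.34 in contralateral kidneys 1 to 4. Obstructed kidney 2 was the highest of its group and kidney 4 the lowest, and the gap to the contralateral kidneys was 0.58 on the log2 scale. Scaled signal averaged 0.631 ± 0.169 (SD, n = 4) in obstructed kidneys and 1.34 ± 0.0719 (SD, n = 4) in contralateral kidneys, a log2 difference of -1.13 ± 0.20 (SE), or 2.18-fold lower. For mmu-miR-101b the scaled signal was 0.131, 0.0996, 0.122 and 0.125 in obstructed kidneys, against 0.139, 0.166, 0.173 and 0.161 in contralateral kidneys. Here obstructed kidney 2 was the lowest, and obstructed kidney 1 and contralateral kidney 1 were nearly adjacent, with a gap of 0.085 on the log2 scale between the groups. The means were 0.119 ± 0.0138 (SD, n = 4) in obstructed kidneys and 0.160 ± 0.0146 (SD, n = 4) in contralateral kidneys, with a log2 difference of -0.42 ± 0.14 (SE), or 1.34-fold lower.

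**Figure D1:**
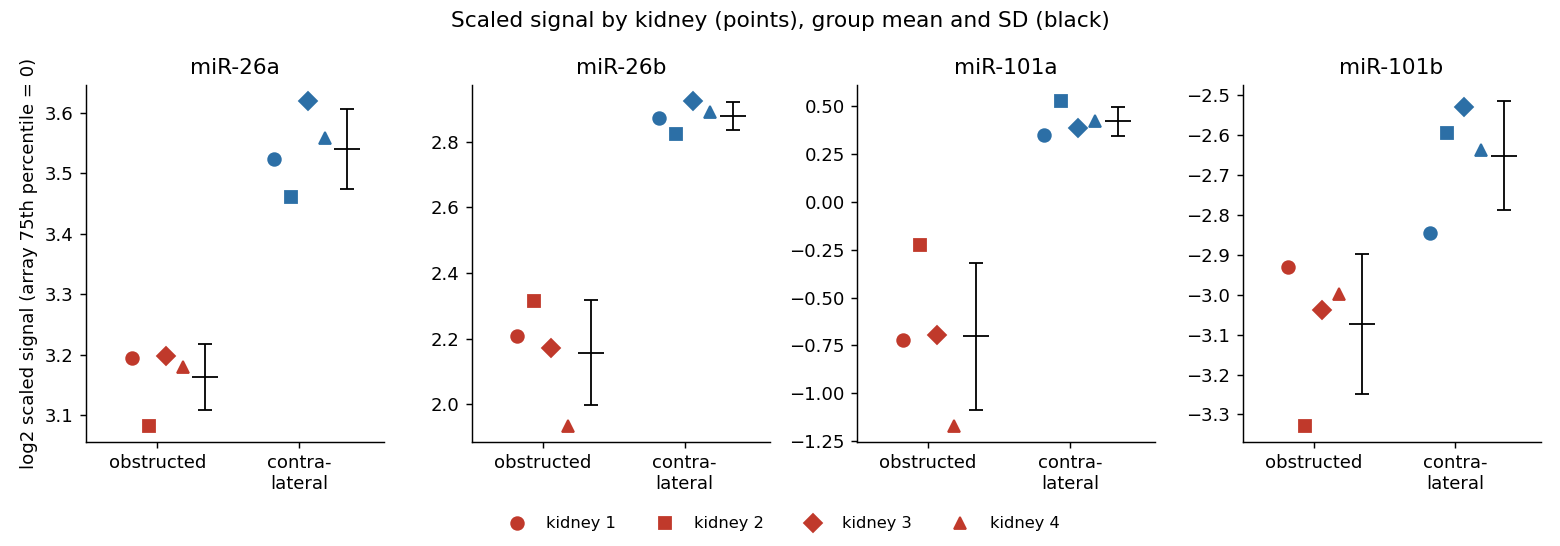
Scaled signal on a log2 axis of the 4 members in each obstructed kidney (left, red) and each contralateral kidney (right, blue), with group mean and SD. Every obstructed point lies below every contralateral point for each member, with the narrowest gap, 0.085, for miR-101b, although without scaling the direction turns for miR-26a, miR-26b and miR-101b.

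Expressed against the contralateral mean, the obstructed kidneys did not rank the same way for each member. miR-26a was nearly even across the obstructed group, at -0.35, -0.46, -0.34 and -0.36 on the log2 scale in kidneys 1 to 4. miR-101a was spread widely over the same kidneys, at -1.14, -0.65, -1.12 and -1.59. miR-26b lay between, at -0.67, -0.56, -0.71 and -0.94, and followed the order of miR-101a, with kidney 2 least and kidney 4 most below the contralateral mean. For miR-101b the values were -0.28, -0.68, -0.39 and -0.35, so that kidney 2, nearest to the contralateral level for miR-101a, was the farthest from it for miR-101b.

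The members were set among all tested miRNAs to show where they lay. The median log2 difference over the 222 miRNAs was -0.14, and the members lay below it by 0.24 for miR-26a, 0.58 for miR-26b, 0.99 for miR-101a and 0.28 for miR-101b. Counted from the most negative difference, miR-101a had rank 12 of 222, miR-26b rank 42, miR-101b rank 66 and miR-26a rank 69. In limma's moderated test with Benjamini-Hochberg adjustment over 222 miRNAs, miR-26b and miR-101a were among the 30 called lower at an adjusted p under 0.05, which is 13.5% of those tested. Because this contrast was known when the members were picked, nothing is read from that count. Without obstructed kidney 2 all 4 members were among the 67 called lower, 30.2% of those tested, with log2 differences of -0.35 ± 0.092 for miR-26a, -0.77 ± 0.11 for miR-26b, -1.28 ± 0.14 for miR-101a and -0.34 ± 0.11 for miR-101b (SE). Their ranks were then 85, 48, 26 and 91 for miR-26a, miR-26b, miR-101a and miR-101b, so that every member ranked less extreme among all miRNAs although 2 of the 4 differences were larger. None of the 4 members, and none of the 222 miRNAs, was called when contralateral kidney 1, 3 or 4 or obstructed kidney 1 or 3 was left out (smallest adjusted p 0.0520 to 0.0678 in limma, while 54 to 67 had an unadjusted p under 0.05), while miR-26b and miR-101a were called without contralateral kidney 2 and without obstructed kidney 4. Over these single omissions the log2 difference stayed between -0.40 and -0.35 for miR-26a, -0.77 and -0.65 for miR-26b, -1.28 and -0.97 for miR-101a, and -0.49 and -0.34 for miR-101b.

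**Figure D2:**
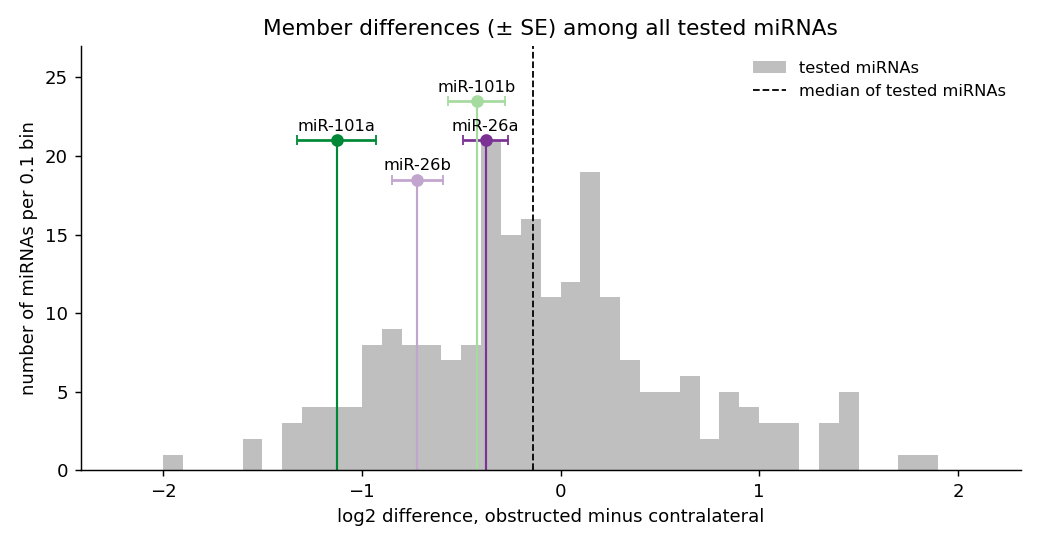
Histogram of the log2 difference, obstructed minus contralateral, of all 222 tested miRNAs in bins of 0.1 (vertical axis, number of miRNAs), with each member's difference and SE as a marked line whose height carries no value and the median of -0.14 dashed. miR-101a, at -1.13, lies toward the low end, and miR-26a, at -0.38, falls in a well-filled bin near the middle.

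Ratios between members on one array do not depend on a scaling by one constant per array. The level of such a ratio depends on the probes, so only its difference between groups is described. The log2 ratio of miR-26b to miR-26a was -0.99, -0.77, -1.03 and -1.24 in obstructed kidneys 1 to 4, against -0.65, -0.64, -0.70 and -0.67 in contralateral kidneys 1 to 4. Every obstructed kidney was below every contralateral kidney, and the difference was -0.34 ± 0.098 (SE), so miR-26b was lower relative to its near-identical partner. The log2 ratio of the miR-101 pair to the miR-26 pair, each taken as the mean log2 signal of its 2 members, was -4.53, -4.48, -4.55 and -4.64 in obstructed kidneys, against -4.45, -4.17, -4.34 and -4.33 in contralateral kidneys. These groups did not overlap either, with a difference of -0.23 ± 0.066 (SE), although obstructed kidney 2 and contralateral kidney 1 were nearly equal. The 2 miR-101 members were not alike in this. The log2 ratio of miR-101a to miR-26a differed by -0.75 ± 0.22 (SE), without overlap, from -3.31 in obstructed kidney 2 to -3.23 in contralateral kidney 3 at the nearest. The scaled log2 difference of miR-101b, -0.42, lay between those of miR-26a, -0.38, and miR-26b, -0.72.

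Within the miR-101 pair the ratio moved the other way and was not uniform. The log2 ratio of miR-101b to miR-101a was -2.21, -3.10, -2.34 and -1.83 in obstructed kidneys 1 to 4, against -3.20, -3.12, -2.92 and -3.06 in contralateral kidneys 1 to 4. Obstructed kidneys 1, 3 and 4 were above all contralateral kidneys, while obstructed kidney 2 was inside the contralateral range. The difference of group means was 0.70 ± 0.27 (SE, n = 4 each), with overlapping groups, and 0.95 without obstructed kidney 2. Without that kidney the ratio of miR-26b to miR-26a differed by -0.42 and that of the miR-101 pair to the miR-26 pair by -0.25. Normexp background correction is not a constant per array and added an offset of 50 to each spot. In the scanner software's background-subtracted signal, which is not a normexp signal, the probes of miR-101b read 7.85 to 39.2 and 43.4 to 161 before scaling. With normexp the ratio of miR-101b to miR-101a differed by 0.14 and that of the miR-101 pair to the miR-26 pair by -0.53. Quantile normalization gave -0.42 for the ratio of the pairs.

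**Figure D3:**
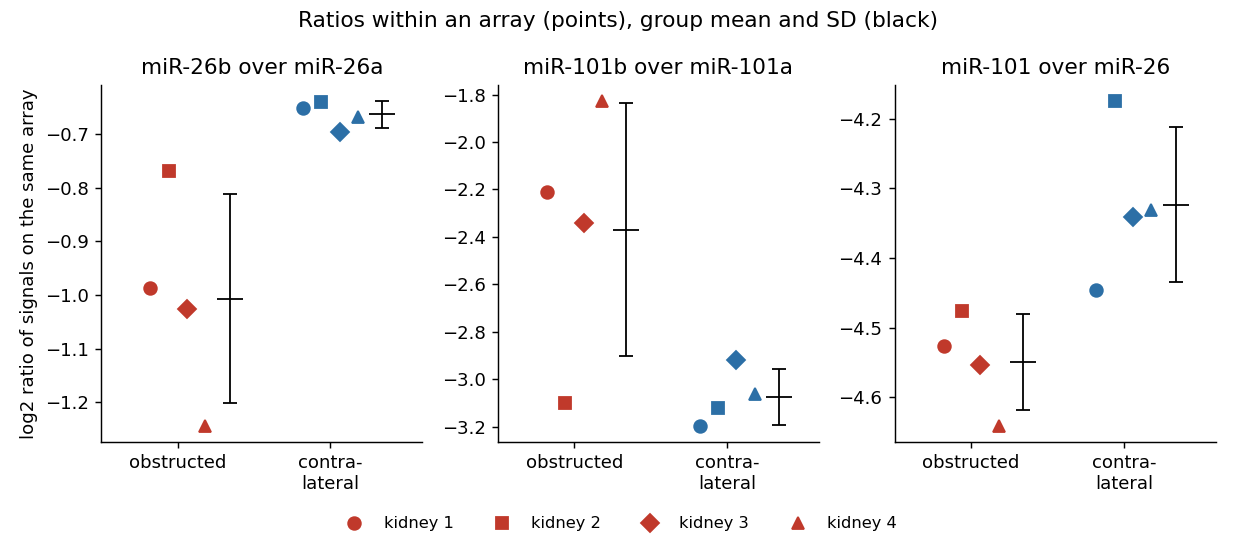
Log2 ratios between members within each array, for obstructed kidneys (left, red) and contralateral kidneys (right, blue), with group mean and SD. The ratios of miR-26b to miR-26a and of the miR-101 pair to the miR-26 pair do not overlap between groups, while obstructed kidney 2, at -3.10, lies among the contralateral kidneys for miR-101b to miR-101a.

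Each member was read by 2 probes with 10 spots per array, and the probes of 3 members gave nearly the same difference. The 2 probes gave log2 differences of -0.37 and -0.38 for miR-26a, -0.73 and -0.72 for miR-26b, and -1.13 and -1.12 for miR-101a, with all obstructed arrays below all contralateral arrays for each of these 6 probes. For miR-101b the brighter probe gave -0.44, without overlap, and the dimmer probe gave -0.24, with overlapping groups. Only 30 of 40 spots of the dimmer probe were above background in obstructed kidneys, with 0 of 10 on obstructed kidney 2, against 34 of 40 in contralateral kidneys. In obstructed kidney 2 the scaled signal of miR-101b was the sum of 0.0843 from the brighter probe and 0.0153 from the dimmer probe, which was not above background there. The scanner software's own error was between 7.11% and 7.16% of the summed signal for miR-101a, 7.29% and 7.43% for miR-26b, 7.65% and 7.87% for miR-26a, and had a median of 9.10% for miR-101b.

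Without scaling between arrays the members' values followed the overall signal of the arrays, which was highest on obstructed kidneys 3 and 4. The summed signal of miR-26a was then 6311, 4358, 12879 and 14443 in obstructed kidneys 1 to 4, against 5900, 4597, 6789 and 6864 in contralateral kidneys 1 to 4. For miR-101a it was 418, 439, 865 and 709 in obstructed kidneys, against 654, 602, 723 and 782 in contralateral kidneys. Obstructed kidneys 3 and 4 thus carried about as much miR-101a signal as the contralateral kidneys or more, on arrays whose 75th percentile was over 2 times that of any contralateral array. The unscaled log2 differences were 0.50 for miR-26a, 0.16 for miR-26b and 0.46 for miR-101b, all positive, and -0.25 for miR-101a, while the median over all 222 miRNAs was 0.74. Dividing an array by a constant shifts all its miRNAs alike, so the differences relative to the median, from -0.24 for miR-26a to -0.99 for miR-101a, are by construction the same with and without it.

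**Figure D4:**
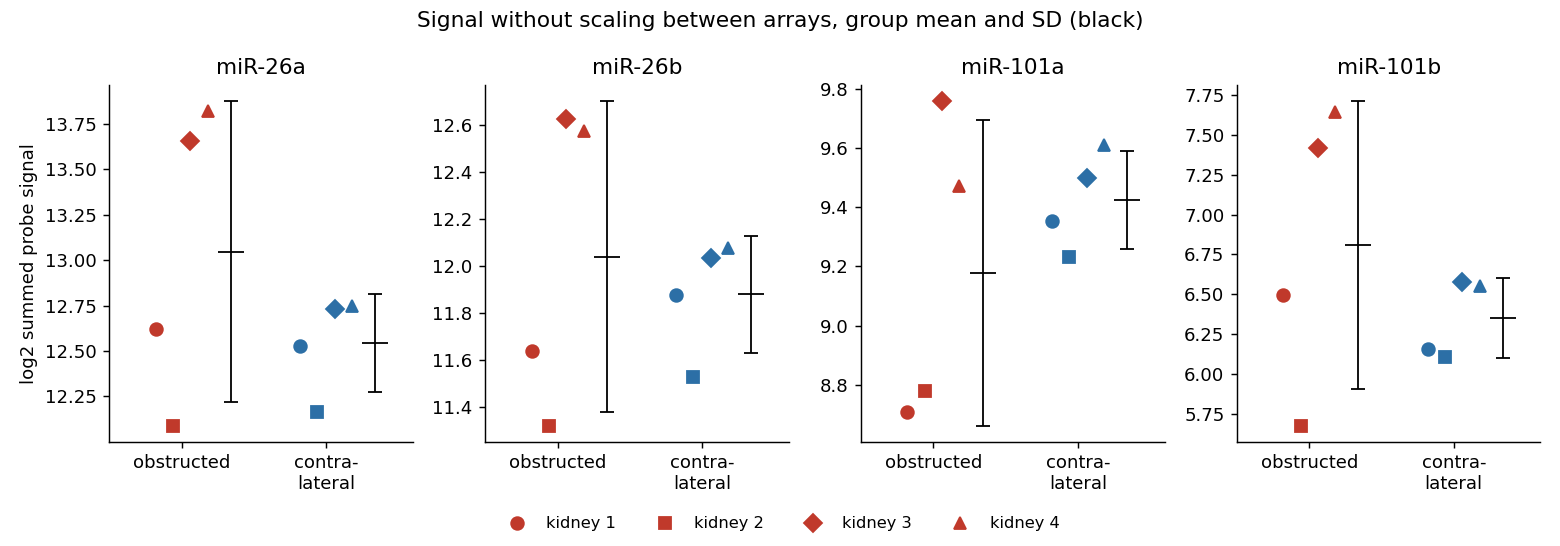
Summed probe signal without scaling, on a log2 axis, for the 4 members in obstructed kidneys (left, red) and contralateral kidneys (right, blue), with group mean and SD. Obstructed kidneys 3 and 4 lie above all contralateral kidneys for miR-26a, miR-26b and miR-101b, and the groups overlap for miR-101a.

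Over 8 scaling and background settings, the position relative to the median was -0.28 to -0.25 for miR-101b and -1.03 to -0.41 for miR-101a. Apart from quantile normalization and normexp, these settings differ only or almost only by a constant per array. They therefore repeat nearly the same position by construction. Under array weights, which give obstructed kidney 2 little weight, the position was -0.13 for miR-101b and -0.97 for miR-101a. Without obstructed kidney 2 it was -0.17 for miR-101b and -1.12 for miR-101a. For miR-26a the position over the 8 settings ran from -0.24 to 0.35 and for miR-26b from -0.58 to 0.01. In both the high end came from normexp background correction, under which the median of all miRNAs was -0.62. Within slide row 1 the scaled log2 differences were -0.35 for miR-26a, -0.59 for miR-26b, -0.91 for miR-101a and -0.41 for miR-101b, and within slide row 2 they were -0.40, -0.85, -1.34 and -0.44 in the same order.

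**Figure D5:**
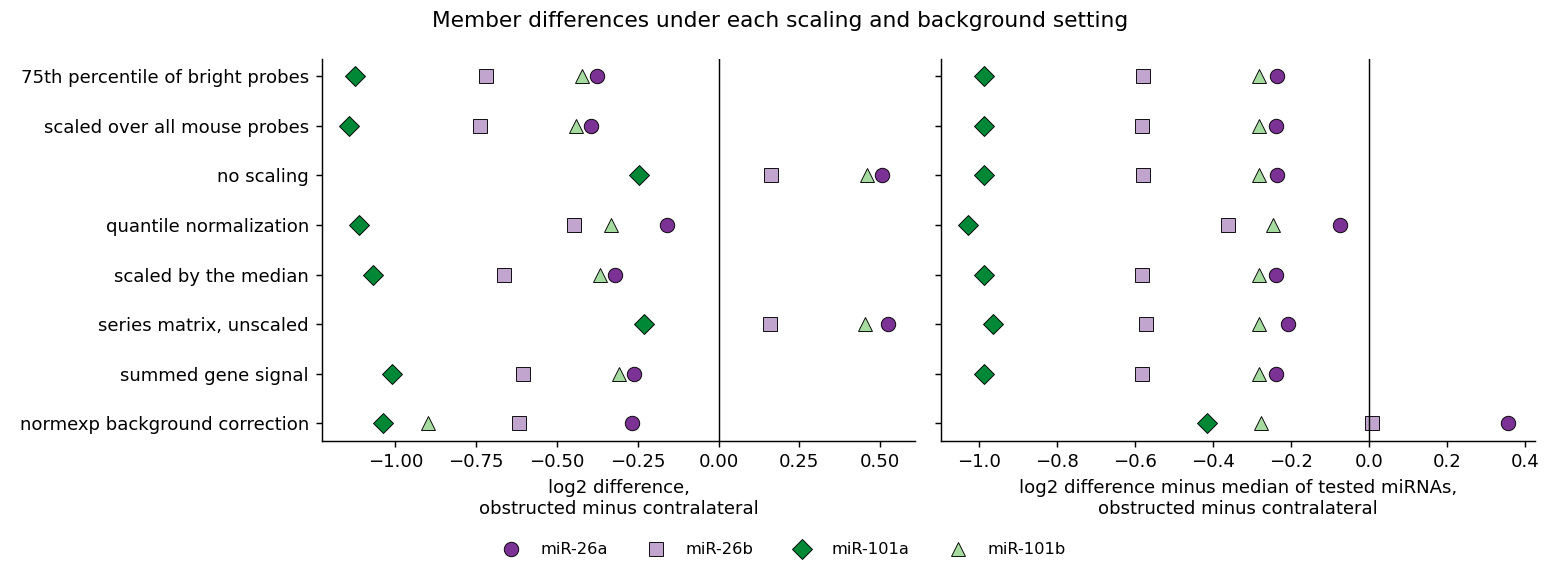
Log2 difference, obstructed minus contralateral, of each member under 8 scaling and background settings (left), and the same minus the median of all tested miRNAs (right). Without scaling miR-26a, miR-26b and miR-101b lie above 0, and relative to the median miR-26a lies above 0 under normexp, at 0.35, while miR-101a and miR-101b lie below 0 under all 8. Apart from quantile normalization and normexp, the settings on the right repeat nearly the same values by construction.

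The miRNAs most like each member were ranked by Pearson r of log2 scaled signal over the 8 arrays. These arrays are shared and fall into 2 groups, so the r values also hold the group difference and are descriptions. miR-101a ran closest with miR-200a (r = 0.998), a miRNA of epithelial cells, and then with miR-365 (0.990) and miR-22 (0.982). The log2 scaled signal of miR-200a was 1.74, 2.11, 1.74 and 1.44 in obstructed kidneys 1 to 4, against 2.41, 2.54, 2.49 and 2.48 in contralateral kidneys 1 to 4. As for miR-101a, obstructed kidney 2 was the highest and kidney 4 the lowest of the obstructed group. Its log2 difference was -0.72, against -1.13 for miR-101a.

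miR-26b ran closest with let-7g (r = 0.986), miR-429 (0.983), which belongs to the miR-200 family, and miR-29c (0.980), a regulator of collagen mRNAs. miR-26a ran closest with miR-218 (0.986), miR-221 (0.972) and miR-582-5p (0.954), and miR-101b with miR-450a-5p (0.921), miR-99a (0.912) and miR-218 (0.904). Between members, r over the same 8 arrays was highest for miR-26b with miR-101a, at 0.979, and lowest for miR-101a with miR-101b, at 0.657. miR-26a and miR-26b had an r of 0.918. miR-26b thus followed a miR-101 member more closely than its own family partner, although these r values share all the arrays and their differences were not tested. The miRNAs least like the mean of the 4 members were miR-680 (r = -0.926), miR-877 (-0.861) and miR-1224 (-0.856), with log2 differences of 1.16, 1.44 and 0.88.

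Other miRNAs reported elsewhere to act on Ezh2 did not share one direction. Of 8 on the array, miR-138, miR-124, miR-137 and miR-217 were not well above background on any array, and 4 were tested. None of the 4 was called in limma over 222 miRNAs, 2 had an unadjusted p under 0.05, against 33 called and 81 at an unadjusted p under 0.05 among all 222, and their median log2 difference was 0.08, against -0.14 for all tested miRNAs. miR-214, which is also abundant in matrix-producing cells, had a scaled signal of 2.55, 0.527, 1.76 and 2.30 in obstructed kidneys 1 to 4, against 0.506, 0.539, 0.685 and 0.538 in contralateral kidneys 1 to 4. Obstructed kidney 2 was at the contralateral level and the other obstructed kidneys were above all contralateral kidneys. Its log2 difference was 1.44 ± 0.47 (SE), with a limma adjusted p of 0.0774, and without obstructed kidney 2 it was 1.95 with an adjusted p of 0.000365 (4.51e-08 to 0.925 over all alternatives). miR-25, of the miR-106b cluster, and miR-30d, of the miR-30 family, had differences of 0.41 ± 0.24 and -0.51 ± 0.19 (SE), with limma adjusted p-values of 0.251 and 0.101.

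Without obstructed kidney 2 both passed in limma, miR-25 at 0.65 with an adjusted p of 0.00354 (0.000385 to 0.957 over all alternatives) and miR-30d at -0.67 with an adjusted p of 0.00456 (0.00172 to 0.925), when 20.7% of all tested miRNAs were called higher and 30.2% lower. miR-98, of the let-7 family, had a difference of -0.25 ± 0.14 (SE) with a limma adjusted p of 0.234. Without scaling, the differences of miR-30d and miR-98 were above 0, at 0.37 and 0.63. miR-144, an erythroid miRNA, is shown because its bases 2 to 8, in capitals, overlap the seed of miR-101a in part.
miR-144: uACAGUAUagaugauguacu
It was above background on 1 of 4 arrays in each group, at a scaled signal of 0.102 in obstructed kidney 2 and 0.184 in contralateral kidney 2.

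Markers of other cell types were measured on the same arrays, and the lists did not share one direction. The median log2 difference of the tested miRNAs was -0.66 for kidney tubule and -0.55 for endothelium. It was 1.35 for leukocytes and 1.10 for fibroblasts and matrix-producing cells. The summed scaled signal of 6 miRNAs abundant in kidney tubule was 25.1 to 36.0 in obstructed kidneys, against 45.9 to 49.1 in contralateral kidneys, and 3 of the 6 were called lower in limma. These 3 were miR-192 at -1.27, miR-194 at -1.31 and miR-30a at -0.84. Not called were miR-10b at -0.48, miR-204 at -0.12 and miR-10a at 0.0043. Without obstructed kidney 2, miR-10b was called lower as well, and miR-204 and miR-10a were at 0.08 and 0.04. The sum of 7 leukocyte miRNAs was 6.84 to 7.69 in obstructed kidneys 1, 3 and 4 and 1.88 in obstructed kidney 2, against 1.99 to 2.71 in contralateral kidneys. The sum of 4 miRNAs of fibroblasts and matrix-producing cells was 89.3 to 118 in obstructed kidneys 1, 3 and 4 and 27.8 in obstructed kidney 2, against 34.5 to 62.6 in contralateral kidneys. Most of that sum was miR-21 alone, at 80.6 to 105 in obstructed kidneys 1, 3 and 4 and 25.3 in obstructed kidney 2, against 31.2 to 58.4 in contralateral kidneys. In obstructed kidney 2 miR-214, at 0.527, was inside its contralateral range of 0.506 to 0.685. None of the leukocyte or fibroblast miRNAs was called over 8 arrays, where 3 of 5 and 1 of 4 tested had an unadjusted p under 0.05. All 5 and all 4 were called higher without obstructed kidney 2, which was left out for its likeness to the contralateral arrays.

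In obstructed kidney 2 the leukocyte and fibroblast sums were below the contralateral range. On that 1 array the members were below the contralateral mean by 0.46 for miR-26a, 0.56 for miR-26b, 0.65 for miR-101a and 0.68 for miR-101b. The tubule sum of that kidney was also below the contralateral range, at 36.0. Endothelial miRNAs summed to 9.57 to 13.2 in obstructed kidneys, against 12.1 to 15.2 in contralateral kidneys, with overlapping groups. Nearly all of that sum was miR-126-3p, which was not called, with a log2 difference of -0.30 and a limma adjusted p of 0.201. The 1 of 2 called lower was the dim miR-126-5p, at a scaled signal of 0.0680 to 0.165 over the 8 arrays. Erythroid miRNAs were high in kidney 2 of both groups, at 24.4 in obstructed kidney 2 and 44.6 in contralateral kidney 2, while the other obstructed kidneys were at 5.16 to 7.58 and the other contralateral kidneys at 5.17 to 6.95. The sum of the smooth muscle miRNAs, 0.938 to 1.95 in obstructed kidneys, spanned the contralateral range, and the 1 tested was not called in limma, with an unadjusted p above 0.05. Of the markers of brain, liver and pancreas, miR-124, miR-122, miR-216a and miR-217 were not above background on any array, miR-375 was above it on 3 of 4 obstructed and 2 of 4 contralateral arrays, and miR-9 was above it on all 8, with a log2 difference of -0.10 ± 0.24 (SE). The 3 striated muscle miRNAs summed to 0.0639 to 0.0857 in obstructed kidneys, against 0.0780 to 0.114 in contralateral kidneys, and the 1 tested, miR-1, had a log2 difference of -0.81 ± 0.29 (SE) with a limma adjusted p of 0.0906. The part of these cell types in the members' differences was not tested.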

How the data were processed

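Spot signals from 8 arrays, 4 obstructed and 4 contralateral kidneys, were used. The deposited intensity values were processed by the authors with Agilent Feature Extraction. The submitters' processing notes give version 10.1.1, while the file headers give 10.7.3.1. Background had been subtracted, and outliers and signal above background were marked per spot, per the file headers. The series matrix equalled these intensities at all 13715 spots of each array, so its direction and scale were known and it carried no centring. Outlier spots (2.34% to 3.52%) and control spots were left out, and no spot was saturated. Spots of a probe were averaged, the 75th percentile over 371 probes above background on every array served as divisor for that array, and a miRNA's probes were summed. Sums under 0.0213 were raised to it, and log2 values were computed from these deposited intensities. A probe was above background where over 50% of its spots were. miRNAs above background on all 4 arrays of a group were tested, 222 of 611, with limma 3.58.1 (lmFit, eBayes) in R 4.3.3, two-sided, Benjamini-Hochberg adjusted, called under 0.05. The rest used matplotlib 3.10.9, numpy 2.4.6 and pandas 2.3.3 under Python 3.11.15, and the fit was tested on simulated data. The members, lists, markers and the likeness rule (3 highest r per member, 3 lowest to their mean) were chosen with earlier results of these data known. Other scalings, background corrections, filters and blocks and leaving out each kidney were tried. The 8 arrays limit the precision.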

Additional observations from a re-analysis of the deposited data

Results flagged for a closer look

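Within each group of 4 kidneys, the gap between the highest or lowest kidney and its nearest neighbour was divided by the range of the group, and values above Dixon's critical value for 4 samples were taken as far from the others. Chance gives about 1 such group in 20, and 4 of 26 groups were past it, each with a kidney numbered 2 as the far one. The 2 groups of miR-144 are no guide to that rate, since their other kidneys are tied at the floor and the gap is then the whole range. For miR-26a, obstructed kidney 2 had a log2 scaled signal of 3.08, below the other obstructed kidneys, with a gap of 0.832 of the range, in a group whose whole range was only 0.12. For miR-30d, obstructed kidney 2 was at 1.61, above the other obstructed kidneys, with a gap of 0.842 of the range. For miR-144, obstructed kidney 2 was at -3.30 and contralateral kidney 2 at -2.44, with the other 3 kidneys of each group at the floor.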

How the results depend on the processing

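Over all 222 miRNAs 33 were called, and 2 of the 4 members. No miRNA and no member was called with scaling over all mouse probes, with normexp or within slide row 1. No scaling, the unscaled series matrix, quantile normalization and summed gene signal each called 3 miRNAs and 0 members. Median scaling called 13 miRNAs and 1 member, no filter 17 miRNAs and 3 members, mean of probe logs 37 and 3, slide row 2 alone 69 and 2, and array weights 138 and 4. Leaving out each kidney in turn gave 0 to 113 miRNAs and 0 to 4 members, and 0 to 3 of the other Ezh2-targeting miRNAs, against 0 over 8 arrays. Slide row 2 alone called 2 of those and array weights 3. The cause was not tested.

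With the kidney number as a replicate block, 0 miRNAs and 0 members were called in limma (67 at an unadjusted p under 0.05, smallest adjusted p 0.0729). Kidneys with the same number were not shown to be paired: the correlations of their deviations were -0.35, 0.22, 0.62 and 0.01 for numbers 1 to 4, and 1 of 4 numbers correlated best with its own.

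Without scaling the log2 differences turned to 0.50 for miR-26a, 0.16 for miR-26b, 0.46 for miR-101b, 0.37 for miR-30d and 0.63 for miR-98, and miR-101a was at -0.25. In the series matrix they were 0.53, 0.16, 0.45, 0.37 and 0.63 in the same order, and miR-101a was at -0.23. No scaling without obstructed kidney 2, added after the data were seen, gave 0.82, 0.40, 0.84, 0.50 and 0.98, miR-101a at -0.11, and called 115 miRNAs, 0 members and 3 other Ezh2-targeting miRNAs. miR-26a was at -0.16 under quantile normalization, -0.26 with summed gene signal and -0.27 with normexp. miR-26b was at -0.45 under quantile normalization, -0.59 in slide row 1 and -0.85 in row 2, and miR-101b was at -0.90 with normexp. The ratio of miR-101 to miR-26 differed by -0.42 under quantile normalization and -0.53 with normexp, and that of miR-101b to miR-101a by 0.14 with normexp. Normexp was run with an offset of 50 on median spot signals, a column chosen after the data were seen. miR-101b, whose dimmer probe was near background, is the member most limited by signal.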
